A study of Mus musculus with 18 samples.

Results

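The comparison described here set microglia from the injured spinal cord of mice given recombinant interleukin-4 (rIL-4) against microglia from mice given phosphate-buffered saline (PBS), in 6 of the 18 RNA-seq libraries of the series. The 6 libraries were chosen by their labels, 3 of rIL-4 (mice 8, 9 and 10) and 3 of PBS (mice 1, 2 and 3), and all 15566 genes that passed the filter on low counts entered. All mice were adult female C57BL/6J of 8 to 10 weeks with a contusion spinal cord injury (SCI) at T11, and no uninjured mouse was among them. At 48 h after SCI each received 1 µL into the cord, holding 100 ng rIL-4 or PBS alone, and the cells were collected 24 h later. Microglia were sorted as CD45low CD11b+ F4/80+ cells, and the macrophages of the same mice were sorted into libraries of their own. The remaining libraries, from mice given rIL-13, entered here only where the spread between libraries or the size factors were estimated. RNA was amplified by SMART-seq2, a full-length method without molecular identifiers, from inputs that ranged from 0.12 to 10 ng and are not given per library in the sources used here.

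IL-4 acts on myeloid cells through a receptor built of the IL-4 receptor alpha chain, Il4ra, with either the common gamma chain, Il2rg, or Il13ra1. The receptor signals through Janus kinases to the transcription factor STAT6, which binds pairs of TTC and GAA separated by a short spacer. In macrophages this pathway is known for the alternative activation program, whose textbook members include the mannose receptor Mrc1, the chitinase-like proteins and Retnla, and for its feedback by suppressors of cytokine signaling. Microglia of the resting cord are known by P2ry12, Tmem119, Cx3cr1 and Sall1, which are reduced in many injury states.

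The microglia libraries of both groups held 37151793 to 44431581 counts each. Normalized counts below are the deposited counts divided by size factors of the 9 microglia libraries, listed for PBS mice 1, 2 and 3 and then for rIL-4 mice 8, 9 and 10. A gene was called differentially expressed (DE) at an adjusted p below 0.05 in edgeR's quasi-likelihood test. The labelled cell type was checked by 10 microglia markers, whose summed CPM (counts scaled to a common library total) ran from 7697 to 13088 in PBS and from 3031 to 4558 in rIL-4 microglia, against 2647 to 4104 and 451 to 847 in the macrophages of the same groups. The libraries also held RNA of other cells: the fibroblast marker Col1a1 and the endothelial marker Cldn5 were read in every one of the 6. Summed markers of fibroblasts, of pericytes and smooth muscle, of oligodendrocyte progenitors, of neurons and of microglia themselves were lower in each rIL-4 library than in each PBS library, as normalized counts and as CPM. Those of infiltrating macrophages were higher in each rIL-4 library as normalized counts, but their groups overlapped as CPM, with 1145 to 1814 in PBS and 1695 to 2706 in rIL-4 microglia. The neutrophil sum was lower in each rIL-4 library as CPM, with 198 to 274 in PBS and 119 to 179 in rIL-4 microglia, but its groups overlapped as normalized counts. The part of these cells in the single results was not tested except where a covariate fit is given. PBS microglia had a count in 17620 to 18371 genes and rIL-4 microglia in 15193 to 15626, so that the groups did not overlap in the number of genes seen. Whether a rise or fall came from fewer cells of a type or from less RNA per cell cannot be told apart in bulk libraries.

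Of 15566 genes, 207 were called higher (1.33%) and 138 lower (0.887%) in rIL-4 microglia, and the median log2 difference over all genes was -0.06. A log2 difference above 0 was found for 7160 genes and one below 0 for 8402, and an unadjusted p below 0.05 (edgeR) for 2553. These values are the background for the counts of the lists below. DESeq2's Wald test called 547 higher and 668 lower, and leaving out 1 library gave 56 to 151 higher and 19 to 118 lower calls in edgeR. The 50 higher and 16 lower genes that were also called in each of 6 fits leaving out 1 of these libraries include Chil3, Retnla, Mrc1, Ccl24 and Socs1. Over all genes, every rIL-4 library was above every PBS library for 10.9% and below for 15.0%. The leading genes were chosen for groups that do not overlap, so nothing is read from that property in them.

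Positions below are from GENCODE M21 on GRCm38. Chil3 (ENSMUSG00000040809.10, chr3:106147554-106167564, minus strand), the secreted chitinase-like protein Ym1, rose 139-fold, from 2153, 10872 and 3446 normalized counts in PBS to 502427, 876747 and 894404 in rIL-4 microglia, with a log2 difference of 7.12 (standard error 0.67, adjusted p = 0.00127, edgeR). Retnla, a secreted cysteine-rich protein of type 2 immunity, was at 7.31, 0.934 and 1.99 in PBS and at 12323, 14906 and 14789 in rIL-4 microglia (adjusted p = 0.000422, edgeR). It was close to the floor of detection in PBS microglia, and the groups did not overlap. Mrc1 (ENSMUSG00000026712.3, chr2:14229392-14332057, plus strand), the mannose receptor, had 330.1, 929 and 985 with PBS and 6374, 19548 and 18259.8 with rIL-4, a 19.7-fold rise (log2 difference 4.30, standard error 0.58, adjusted p = 0.00735, edgeR). PBS mouse 1 had the lowest level of Mrc1 among controls and rIL-4 mouse 8 the lowest among treated mice, and the groups did not overlap.

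Clec7a (ENSMUSG00000079293.11, chr6:129461591-129472779, minus strand), the beta-glucan receptor Dectin-1, had 6685, 5838 and 5901 in PBS and 42873, 35400.4 and 35268 in rIL-4 microglia. Its replicates were tight in both groups, and it rose 6.17-fold (log2 difference 2.63, standard error 0.14, adjusted p = 5.74e-05, edgeR). Pdcd1lg2, the PD-1 ligand PD-L2, had no count in any PBS library and 1207, 1371 and 622 normalized counts with rIL-4, at least 340.3-fold higher against a floor of 3 counts per library (adjusted p = 0.00208, edgeR). Matk, a kinase that phosphorylates Src-family kinases, rose 7.53-fold, from 356, 270 and 298 to 1849.7, 2745 and 2359 (adjusted p = 0.00122, edgeR). In all, 14 of the 24 members of the alternative activation list that were tested were called higher (1.33% of all genes) and none lower (0.887%), with a median log2 difference of 2.67. Other members called included Chil4, Mgl2, Cd163, Tgm2, Cdh1, Il1rn and Fabp5. The list held 8 to 14 calls when 1 library was left out, fewest without PBS mouse 1 or PBS mouse 3. Its members are known IL-4 targets, and the list was made with results of these data known, so that its direction is not independent evidence.

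Several of these 14 lost their calls in some of the fits that left out 1 library. Mgl2, a galactose-type lectin, had 97.2, 88.8 and 12.9 with PBS and 1986, 4255 and 4569 with rIL-4 (adjusted p = 0.0114, edgeR) and was not called without PBS mouse 1 or 2 (adjusted p = 0.0596 and 0.0507). Cd163, the scavenger receptor for hemoglobin bound to haptoglobin, had 78.4, 332 and 156 with PBS and 1622, 6762 and 7232 with rIL-4 (adjusted p = 0.0152, edgeR). Tgm2, the protein-crosslinking tissue transglutaminase, rose 6.56-fold from 16239, 23768 and 14960.3 to 72416, 188504 and 98520.4 (adjusted p = 0.0119, edgeR). Both lost the call without PBS mouse 1 or PBS mouse 3, with an adjusted p of at most 0.0872 for Cd163 and 0.0812 for Tgm2. Fabp5, a fatty acid-binding protein, had 8879.5, 13834 and 9009 with PBS and 25006, 23097 and 35542 with rIL-4 and behaved in the same way (adjusted p = 0.0177, at most 0.0986 in those fits, edgeR). The groups of each of these genes did not overlap. Cdh1, the adhesion molecule E-cadherin, varied between libraries, with 70, 15.9 and 0.995 in PBS and 617, 3193 and 1905 in rIL-4 microglia (adjusted p = 0.0295, edgeR), and lost its call without PBS mouse 2 or 3 or without rIL-4 mouse 9 or 10 (adjusted p at most 0.13).

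**Figure D1:**
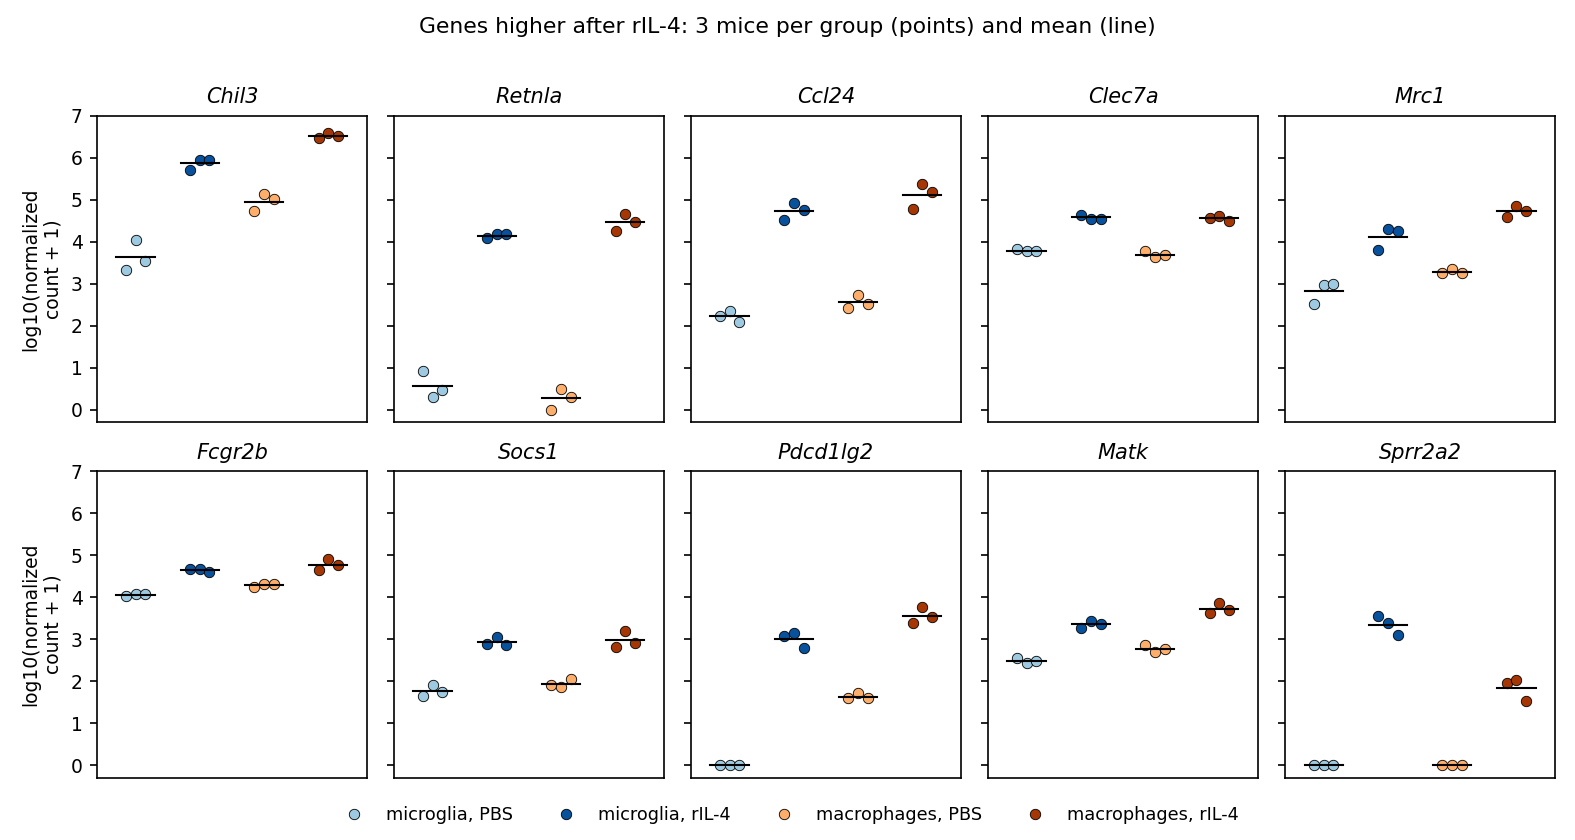
Normalized counts on a log10(value + 1) axis of 10 genes called higher after rIL-4 in microglia, with 1 point per mouse (3 per group) and a line at the mean of the log values, for microglia and macrophages given PBS or rIL-4. In each gene the rIL-4 microglia (dark blue) lie above the PBS microglia (light blue), and in Sprr2a2 they lie above the rIL-4 macrophages as well, at 3650.1, 2409 and 1277 against 89.6, 103 and 33.

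Most genes with the largest fitted log2 rises were at or near 0 in PBS microglia, and several are better known from other tissues. Fitted rises of genes with no PBS count depend on the prior count of the fit, so that their order is not one of measured rises. Msx3 (ENSMUSG00000025469.10, chr7:140046157-140049089, minus strand), a homeobox factor of the dorsal neural tube, had 0, 0.934 and 0 in PBS and 1550.3, 5542 and 2656 in rIL-4 microglia, at least 1037-fold higher (adjusted p = 0.00114, edgeR). Sprr2a1 and Sprr2a3 are small proline-rich proteins of the epithelial cornified envelope, like Sprr2a2 in the same cluster on chromosome 3. Sprr2a2 (ENSMUSG00000068893.5, chr3:92215920-92256724, plus strand) had no count with PBS and 3650.1, 2409 and 1277 with rIL-4. Sprr2a1 had 894, 523 and 275 and Sprr2a3 189, 112 and 35.3 with rIL-4, again with no count in PBS microglia, but the 3 copies are nearly identical and the split of reads among them is uncertain. All 3 that were tested were called higher, Sprr2a3 only at an adjusted p of 0.0284 (edgeR), which was lost without PBS mouse 1, 2 or 3 or rIL-4 mouse 8 or 9 (at most 0.115).

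Pla2g4d, a cytosolic phospholipase A2, had 531, 234 and 424 normalized counts with rIL-4 and none with PBS. It was at least 127-fold higher (adjusted p = 0.0336, edgeR), although leaving out any 1 of the 6 libraries ended the call (adjusted p at most 0.126). Chil4, the chitinase-like protein Ym2, had 273, 692 and 496 with rIL-4 and none with PBS (adjusted p = 0.0239, edgeR). It shares much of its sequence with Chil3, so that its reads may be split between them, and it was called only without rIL-4 mouse 8 among the fits lacking a library (adjusted p at most 0.0942 in the others). Apol7c, an apolipoprotein L family member, had 282, 53.9 and 227 with rIL-4 and none with PBS (adjusted p = 0.0179, edgeR), and lost its call without any 1 PBS mouse (at most 0.0741). Ccr7, the receptor that guides dendritic cells and lymphocytes to lymph nodes, had 456, 157 and 907 with rIL-4 and none with PBS. It was at least 162-fold higher (adjusted p = 0.0282, edgeR), a call that was kept only in the fit without rIL-4 mouse 9 (adjusted p at most 0.104 in the others). Of the 5 dendritic cell markers tested, Ccr7 alone was called. The pair of eosinophil-type ribonucleases that were tested, Rnase2a and Ear2, both rose, Rnase2a from 10.4, 40.2 and 18.9 to 3425, 3440.1 and 3649 (adjusted p = 0.000346, edgeR) and Ear2 from 1.04, 24.3 and 17.9 to 1973, 1739 and 2024 (adjusted p = 0.00225, edgeR). Their copies share reads, and their separate values are uncertain.

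The promoters of the DE genes were searched for TTC followed by any 4 bases and GAA, a motif that reads the same on both strands. RefSeq windows of 250 bases before to 50 after the start site (GRCm38.p6) were at hand for 158 of the 207 genes called higher, and 21 of them held the motif (13.3%). The share was 3 of 103 genes called lower (2.91%) and 752 of 11162 of all genes tested (6.74%). Of the 12 leading rises, 9 had a window and 7 of these held the motif: Sprr2a1, Sprr2a2 and Sprr2a3, which are copies of each other, and Pdcd1lg2, Retnla, Pla2g4d and Apol7c. The 4 promoters that follow are examples, chosen after the values were seen, from the genes called higher in every fit leaving out 1 library. Sprr2a1, Lgals3 and Cbr2 also had the motif and such calls and are not shown. The sequences are given with the motif in capitals and 5′ to 3′ on the strand of the gene. A match describes the letters of the window and is not a measured binding site.
Retnla (chr16:48842359-48842658, plus strand): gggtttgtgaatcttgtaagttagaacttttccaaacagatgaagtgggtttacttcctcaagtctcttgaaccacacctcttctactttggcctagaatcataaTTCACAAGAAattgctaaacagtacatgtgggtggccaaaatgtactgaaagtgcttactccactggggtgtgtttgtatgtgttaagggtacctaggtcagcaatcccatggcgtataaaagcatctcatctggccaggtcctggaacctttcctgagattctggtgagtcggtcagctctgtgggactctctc
Pdcd1lg2 (chr19:29410669-29410968, plus strand): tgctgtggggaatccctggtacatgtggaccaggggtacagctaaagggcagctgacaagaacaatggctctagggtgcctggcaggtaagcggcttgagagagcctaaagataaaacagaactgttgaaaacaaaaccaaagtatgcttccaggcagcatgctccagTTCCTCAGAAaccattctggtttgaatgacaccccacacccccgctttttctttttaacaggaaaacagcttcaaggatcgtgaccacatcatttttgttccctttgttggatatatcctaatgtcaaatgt
Sprr2a2 (chr3:92250397-92250696, plus strand): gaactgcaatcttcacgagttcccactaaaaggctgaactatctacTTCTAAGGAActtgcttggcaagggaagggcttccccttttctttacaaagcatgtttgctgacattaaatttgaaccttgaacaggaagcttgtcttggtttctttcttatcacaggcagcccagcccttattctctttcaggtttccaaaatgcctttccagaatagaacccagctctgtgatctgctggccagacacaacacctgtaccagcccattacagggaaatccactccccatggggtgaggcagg
Clec7a (chr6:129472730-129473029, minus strand): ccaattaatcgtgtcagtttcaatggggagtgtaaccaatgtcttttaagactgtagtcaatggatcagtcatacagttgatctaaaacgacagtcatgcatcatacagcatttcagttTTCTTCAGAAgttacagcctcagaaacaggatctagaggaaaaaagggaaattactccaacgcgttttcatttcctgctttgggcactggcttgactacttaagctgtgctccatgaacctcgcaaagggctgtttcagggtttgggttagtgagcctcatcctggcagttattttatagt

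The receptor and its transducers were not called at the level of RNA. None of the 15 genes of this list passed edgeR's test, and 6 had an unadjusted p below 0.05 (2553 of all 15566 genes). Their log2 differences ran from -2.19 to 8.80 with a median of -0.01, and DESeq2's Wald test called 2 higher and 2 lower. Il4ra had 6094, 10406 and 8909 in PBS and 5236, 19066 and 10539 in rIL-4 microglia, where mouse 9 was high and mouse 8 below every control, a log2 difference of 0.46 (standard error 0.47, adjusted p = 0.749, edgeR). Stat6 had 5239.5, 6474 and 6189.8 with PBS and 7098, 6213 and 8936 with rIL-4 (log2 difference 0.32, standard error 0.17, adjusted p = 0.428, edgeR). Il13ra1, the chain shared with the IL-13 receptor, was lower in every rIL-4 library, with 4967, 6037 and 5560.3 against 3439, 1425 and 2644, but missed the threshold at a log2 difference of -1.14 (standard error 0.32, adjusted p = 0.121, edgeR). Irs2, an adaptor that couples the receptor to PI3 kinase, had 125, 178 and 100.4 with PBS and 306, 187 and 144 with rIL-4 (log2 difference 0.66, standard error 0.81, adjusted p = 0.806, edgeR).

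Feedback genes were called in both directions. Socs1, which blocks Janus kinases, rose 14.9-fold from 43.9, 79.4 and 55.7 to 777, 1139 and 746 (log2 difference 3.90, standard error 0.38, adjusted p = 0.00138, edgeR). Socs2 had 664, 751 and 368 with PBS and 1893, 4152 and 2075 with rIL-4 (adjusted p = 0.0218, edgeR). Socs3, the inhibitor of IL-6 type signaling, was lower in each rIL-4 library, at 2574, 2814 and 2818 against 4510.3, 5169 and 5532, and fell 1.85-fold (adjusted p = 0.0282, edgeR). The call of Socs2 was lost without any 1 PBS mouse (at most 0.099) and that of Socs3 without any 1 of the 6 libraries (at most 0.127). Cish, a STAT5 target, was higher in all 3 treated libraries, at 1743, 1336 and 339 against 306, 136 and 106, and did not pass (log2 difference 2.64, standard error 0.87, adjusted p = 0.173, edgeR).

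Among 19 transcription factors tied to alternative activation, 2 were called and 17 had a log2 difference above 0. Nfil3 (ENSMUSG00000056749.7, chr13:52967209-52981073, minus strand), a basic leucine zipper factor induced by cytokines, rose 3.72-fold, from 727, 882 and 917 to 2557, 3228 and 3595 (log2 difference 1.90, standard error 0.19, adjusted p = 0.00138, edgeR). Bhlhe40, a repressor of the basic helix-loop-helix family, had 2664, 4657 and 3393 with PBS and 7297, 7907 and 6911 with rIL-4 (adjusted p = 0.0384, edgeR) and was called only without PBS mouse 2 among the fits lacking a library (at most 0.175 in the others). Irf4, a factor of alternative activation, was low and varied between mice, with 49.1, 1.87 and 4.97 in PBS and 5.46, 176 and 0 in rIL-4 microglia. Its highest value was in rIL-4 mouse 9, and no difference was detected at this spread between mice (adjusted p = 0.833, edgeR).

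Among 20 genes of arginine and polyamine metabolism 4 were called higher and none lower, among them a transporter and a synthetase. Slc7a2, the cationic amino acid transporter that brings arginine into myeloid cells, had 538, 1251 and 429.6 with PBS and 3469.9, 9294 and 8815 with rIL-4 (adjusted p = 0.0144, edgeR). Ass1, which with argininosuccinate lyase rebuilds arginine from citrulline, rose 4.08-fold, from 1118, 1015 and 1062 to 4939, 4165 and 3895 (adjusted p = 0.008, edgeR). The list held 1 to 4 calls when 1 library was left out. The calls of Slc7a2 and Ass1 were lost without PBS mouse 1 or PBS mouse 3 (adjusted p at most 0.0892 and 0.0585, edgeR). Nos2, the inducible nitric oxide synthase that competes for arginine, had 379, 876 and 89.5 with PBS and 693, 1135 and 1013 with rIL-4, with overlapping groups and a log2 difference of 1.09 (standard error 0.65, adjusted p = 0.478, edgeR).

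All 9 chemokines of type 2 responses that were tested had a log2 difference above 0, and 4 of them were called higher. Ccl24 (ENSMUSG00000004814.10, chr5:135569937-135573049, minus strand), or eotaxin-2, which attracts eosinophils through CCR3, had 167, 219 and 119 with PBS and 32799, 81086 and 56119 with rIL-4, a rise of 337-fold (log2 difference 8.40, standard error 0.45, adjusted p = 5.74e-05, edgeR). Ccl8, a monocyte and T cell attractant, rose 81.8-fold from 71, 98.1 and 76.6 to 2744, 10434 and 6900 (adjusted p = 0.00127, edgeR). Ccl6 had 5715, 9279.7 and 5060 with PBS and 52007, 65156 and 74661 with rIL-4, and Ccl9 had 3598, 7739.8 and 5197 with PBS and 28138, 58512 and 51512 with rIL-4, rises of 9.6-fold and 8.39-fold (adjusted p = 0.00101 and 0.0042, edgeR). All 4 kept their calls when any 1 of the 6 libraries was left out.

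Of 22 inflammatory cytokines and chemokines tested, none was called higher and 2 lower, with a median log2 difference of -0.55. Tnf fell 5.16-fold, from 1545, 1195 and 997 to 154, 363 and 205 (adjusted p = 0.0192, edgeR). Ccl4, a chemokine that attracts monocytes and T cells, fell from 3782, 2608 and 2486 to 913, 1193 and 1189 (adjusted p = 0.0298, edgeR). In both the groups were apart, but the call of Tnf was lost without PBS mouse 1, 2 or 3 or rIL-4 mouse 10 (at most 0.115) and that of Ccl4 without any 1 library (at most 0.142). Il1b had 535, 866 and 808 with PBS and 445, 1399 and 1641 with rIL-4, which overlapped (log2 difference 0.66, standard error 0.48, adjusted p = 0.591, edgeR). Of 28 interferon-stimulated genes none was called in edgeR (median log2 difference -0.37), nor was any of 35 genes of DNA replication and mitosis (-0.21). In each list 4 genes had an unadjusted p below 0.05, against 2553 of all 15566. Of 22 immediate early genes only Fos was called, lower, at 3385, 5032 and 7041 against 14567, 14033 and 11141 (adjusted p = 0.0459, edgeR), and not without PBS mouse 1, 2 or 3 or rIL-4 mouse 8 or 9 (at most 0.177).

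Cd74, the invariant chain that escorts MHC class II, rose 6.41-fold, from 1122, 1341 and 698 to 7682, 6475 and 6047 (adjusted p = 0.0108, edgeR), and was the only call among 14 genes of class II presentation. Fcgr2b (ENSMUSG00000026656.15, chr1:170958617-170976547, minus strand), the inhibitory receptor for IgG, rose 3.85-fold from 10686, 12193 and 11938 to 47174, 46747 and 39885 with little spread (log2 difference 1.95, standard error 0.14, adjusted p = 0.000346, edgeR). The activating high-affinity receptor Fcgr1 fell, from 6306, 6701 and 7519 to 2315, 2567 and 4039 (adjusted p = 0.0303, edgeR), and Fcgrt, which recycles IgG, rose from 5132, 4822 and 4686 to 10681, 12616 and 9463 (adjusted p = 0.00795, edgeR). C3, the central complement component, had 333, 575 and 669 with PBS and 2797, 5249 and 3291 with rIL-4 (adjusted p = 0.00868, edgeR). Cfp, or properdin, had 1445, 3367 and 1961 with PBS and 5769.7, 8616 and 8473 with rIL-4 (adjusted p = 0.0218, edgeR). Itgam, the CD11b chain of complement receptor 3 and one of the markers of the sort, fell from 25118, 18374 and 31304 to 8806, 9031 and 12664 (adjusted p = 0.041, edgeR). Fcgr2b and C3 kept their calls in every fit without 1 library. Cd74 lost it without PBS mouse 1 or 3 (at most 0.0652), Fcgrt without PBS mouse 3 (0.0597), Cfp without PBS mouse 1 or 3 or rIL-4 mouse 9 or 10 (0.115), Fcgr1 without any PBS mouse or rIL-4 mouse 8 or 9 (0.132), and Itgam without any 1 library (0.171).

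Inhibitory and checkpoint receptors had 3 calls higher and 1 lower among 18 tested. Beside Pdcd1lg2, Cd300lf, an inhibitory receptor that binds phosphatidylserine, rose 3.16-fold, from 1182, 1581 and 1819.9 to 4767, 5073 and 4615 (adjusted p = 0.00695, edgeR), and was called in all 6 fits without 1 library. Cd200r1, the receptor for neuronal CD200, had 453, 591 and 759.8 with PBS and 1297, 2386 and 1839 with rIL-4 (adjusted p = 0.0268, edgeR). Pilra, which carries an inhibitory motif, had 2027, 2166 and 2018 with PBS and 377, 729 and 579 with rIL-4, lower with rIL-4 (adjusted p = 0.0218, edgeR). When 1 library was left out, Cd200r1 kept its call only without rIL-4 mouse 8 and Pilra only without rIL-4 mouse 9 (highest adjusted p 0.132 and 0.0944, edgeR).

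Genes of engulfment split. Among 25 phagocytosis and scavenger receptors 3 were called higher and 4 lower, against 1.33% and 0.887% of all genes. The rises were Mrc1, Cd163 and Olr1, the receptor for oxidized LDL, at 283, 399.9 and 325 with PBS and 1142, 2318 and 1693 with rIL-4 (adjusted p = 0.00868, edgeR). Axl, a receptor for apoptotic cells, fell 3.01-fold, from 7793, 8031 and 8011 to 3724, 1743 and 2451 (adjusted p = 0.0295, edgeR), and its ligand Gas6 fell 2.06-fold, from 10761, 11219 and 12403 to 4024, 6212 and 6457 (adjusted p = 0.0339, edgeR). Itgb5, the integrin beta 5 chain of a phagocytic receptor, had 5791, 5334 and 6342 with PBS and 2232, 1905 and 1412 with rIL-4, and Scarb2, a lysosomal membrane protein, 6203, 6553 and 6864 with PBS and 4551, 3631 and 4421 with rIL-4 (adjusted p = 0.0339 and 0.0462, edgeR). Leaving out 1 library ended each of these calls in at least some fits: Olr1 without PBS mouse 1 or 3 (0.0629), Axl without any mouse but rIL-4 mouse 8 (0.116), and Gas6, Itgb5 and Scarb2 without any 1 library (0.143, 0.135 and 0.206).

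Of 30 genes tested that mark damage-associated microglia (DAM), 4 were called higher, 1 lower and 14 had a log2 difference above 0, with a median of -0.16. The 4 were Clec7a, Ccl6, Fabp5 and Lgals3, and the one that fell was Axl. In 5 of the 30 every rIL-4 library was above every PBS library (10.9% of all genes) and in 12 below (15.0% of all genes), and DESeq2's Wald test called 4 higher and 6 lower. The 12 include Spp1, or osteopontin, at 309593, 649049 and 500955 with PBS and 185402, 191648 and 278243 with rIL-4, and Ctsd, the lysosomal protease cathepsin D, at 766104, 489419 and 675676 with PBS and 295245, 180969 and 282204 with rIL-4, neither called by edgeR (adjusted p = 0.066 and 0.0844) but called under 6 and 3 of the other settings, DESeq2 among them. Both are named after their values were seen. Lgals3 (ENSMUSG00000050335.17, chr14:47367751-47386160, plus strand), or galectin-3, had 12612, 22195 and 13579 with PBS and 59293, 70699.7 and 79471 with rIL-4, a rise of 4.34-fold (log2 difference 2.12, standard error 0.24, adjusted p = 0.00289, edgeR), and was called in all 6 fits without 1 library.

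**Figure D2:**
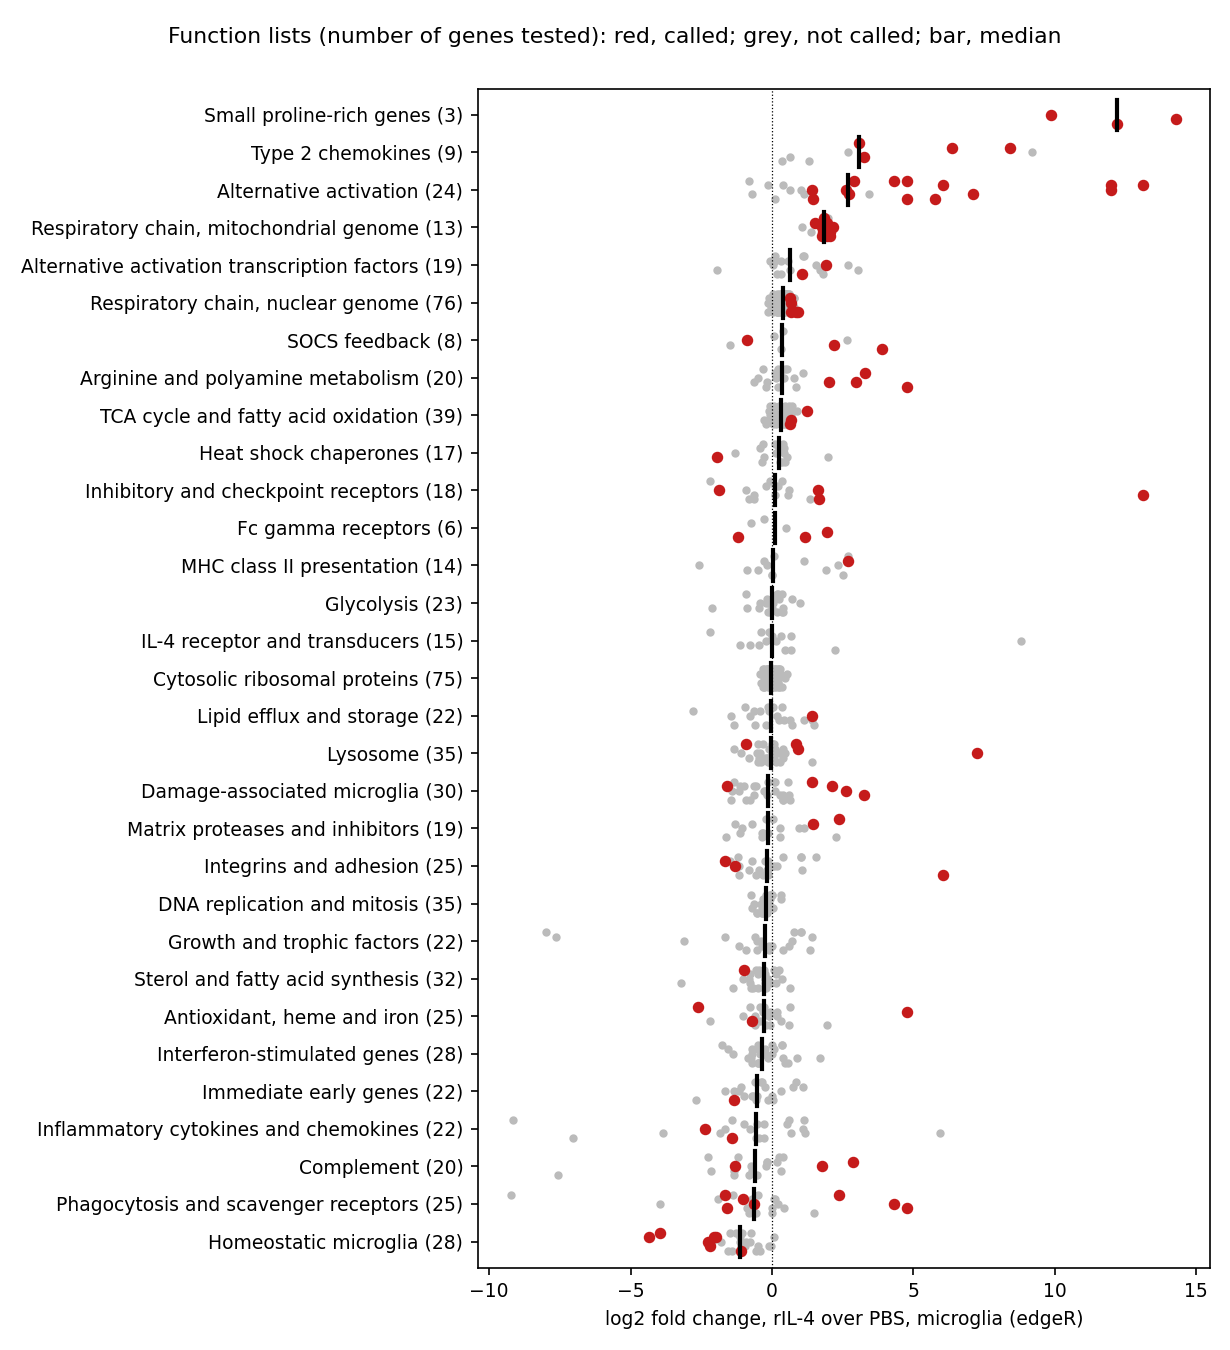
Log2 difference (rIL-4 over PBS in microglia, edgeR) of each gene in the function lists of 3 or more tested genes, red where called and grey where not, with a bar at the median and the number of genes tested in brackets. Among those lists of 9 or more genes the medians of type 2 chemokines, alternative activation and the mitochondrial genome were highest (3.07, 2.67 and 1.83) and that of homeostatic microglia lowest (-1.13), and fitted values of genes with no count in 1 group depend on the prior count and are no bounds.

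Of 28 homeostatic microglial genes tested, 7 were called lower (0.887% of all genes) and none higher. A log2 difference below 0 was found in 27 (8402 of all 15566), and in 18 (against 15.0% of all genes) every rIL-4 library was below every PBS library. The median was -1.13. Tmem119 (ENSMUSG00000054675.5, chr5:113793729-113800516, minus strand), a microglial membrane protein, fell 4.77-fold, from 27483, 16385 and 25700 to 6602, 3485 and 4474 (log2 difference -2.26, standard error 0.39, adjusted p = 0.0218, edgeR). P2ry13, a purinergic receptor, fell 4.59-fold, from 9071, 5977 and 10576 to 1684, 1710.3 and 2190.4 (adjusted p = 0.0136, edgeR). Olfml3, a secreted olfactomedin-like protein, had 69939, 43918 and 70039 with PBS and 20939, 11636 and 14175 with rIL-4, and Cx3cr1, the fractalkine receptor, 80829, 41443 and 77128 with PBS and 21669, 12766 and 13188 with rIL-4 (adjusted p = 0.0157 and 0.0444, edgeR). Slc2a5, a fructose transporter, fell 20.4-fold, from 2715, 1112 and 2477 to 61.2, 97.8 and 151 (adjusted p = 0.0218, edgeR). The remaining calls were Sparc, a secreted matrix protein, at 104296, 70955 and 63923 with PBS and 44477, 34966 and 31654 with rIL-4 (adjusted p = 0.0308, edgeR), and Crybb1, a crystallin, at 1078, 554 and 818 with PBS and 96.1, 38.8 and 23.6 with rIL-4 (adjusted p = 0.0268, edgeR).

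In each of these genes PBS mouse 2 or, for Sparc, PBS mouse 3 was the lowest control. P2ry12, the purinergic receptor that steers microglial processes, had 19592, 7489 and 16441 with PBS and 7762, 3615 and 4807 with rIL-4, and the groups overlapped because rIL-4 mouse 8 was above PBS mouse 2 (log2 difference -1.43, standard error 0.46, adjusted p = 0.163, edgeR). Sall1, the transcription factor of microglial identity, had 2433, 1012 and 3010.4 with PBS and 1138, 759 and 1216 with rIL-4 (log2 difference -1.05, standard error 0.51, adjusted p = 0.353, edgeR). Of the 7 calls 0 to 5 were left when 1 library was omitted, fewest without PBS mouse 1 or 3, with at most 0.0693 (P2ry13), 0.0756 (Olfml3), 0.0981 (Tmem119), 0.0944 (Slc2a5), 0.113 (Sparc), 0.131 (Crybb1) and 0.169 (Cx3cr1) as the adjusted p. P2ry13 was lost without PBS mouse 1 or 3, Olfml3 also without rIL-4 mouse 10, Tmem119 without these or rIL-4 mouse 9, and Cx3cr1 without any 1 library. Slc2a5 was called without PBS mouse 2 only, and Crybb1 and Sparc without rIL-4 mouse 8 only. With the summed macrophage markers as a covariate 0 of the 7 were called.

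Transcripts of the mitochondrial genome were higher, and 10 of 13 were called. The 13 protein-coding genes took 2.18, 2.5 and 3.01% of all counts in PBS and 12.2, 6.35 and 8.04% in rIL-4 microglia, groups that did not overlap (exact permutation test, p = 0.1, two-sided, the smallest value that 3 against 3 can give). All 13 had a log2 difference above 0, with a median of 1.83. mt-Co1, a subunit of cytochrome c oxidase, had 322626, 337142 and 428734 with PBS and 2300751, 1006431 and 1484645 with rIL-4 (log2 difference 2.14, standard error 0.27, adjusted p = 0.00602, edgeR), and mt-Nd1, of complex I, 89435, 102265 and 146402 with PBS and 653441, 288857 and 467018 with rIL-4 (adjusted p = 0.0101, edgeR). rIL-4 mouse 8 was the highest and mouse 9 the lowest of the treated libraries for both. The number of genes with a count was 15193, 15626 and 15325 in rIL-4 mice 8, 9 and 10, thus lowest in mouse 8 and highest in mouse 9, and 17620 to 18371 in PBS mice, and its part in this result was not tested. The number called was 1 without PBS mouse 1 or 2, where mt-Nd1 had an adjusted p of at most 0.0652, and mt-Co1 was called in all 6 fits. With the fibroblast and the endothelial marker sum as a covariate 5 of the 13 were called in edgeR. With the macrophage sum none was, 11 had an unadjusted p below 0.05 (1484 of all 15566 genes), and mt-Co1 had an adjusted p of 0.14. With the pericyte and smooth muscle sum, a fit added after the data were seen, none was called and 1 had an unadjusted p below 0.05 in edgeR (1294 of all 15566 genes). Reads from nuclear copies of these genes could not be separated.

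Of 76 nuclear genes of the respiratory chain tested, 70 had a log2 difference above 0 (7160 of all 15566), and the median was 0.40. In 53 (against 10.9% of all genes) every rIL-4 library was above every PBS library, and 5 were called higher (1.33% of all genes) and none lower. Ndufv2 of complex I had 3089, 3302 and 3042 with PBS and 6402, 5506 and 6085 with rIL-4, and Ndufb8 of the same complex 3373, 3356 and 3006 with PBS and 5735, 5945 and 5754 with rIL-4 (adjusted p = 0.0115 and 0.0154, edgeR). Atp5b and Atp5f1, subunits of the ATP synthase, rose 1.57-fold and 1.59-fold, and Sdhb of succinate dehydrogenase 1.53-fold (adjusted p = 0.0236, 0.0348 and 0.029, edgeR). Of 39 genes of the TCA cycle and fatty acid oxidation, 33 were above 0 and 3 were called higher: Sdhb, Idh1 at 3771, 3079 and 4076 with PBS and 7556, 7207 and 11037 with rIL-4, and Idh3b at 4581, 5168 and 5063 with PBS and 8673, 7356 and 7587 with rIL-4, both of isocitrate dehydrogenases (adjusted p = 0.0206 and 0.0308, edgeR). None of these 7 nuclear genes kept its call in all 6 fits without 1 library: each was lost without any 1 PBS mouse, and Atp5b, Atp5f1, Sdhb and Idh3b without any 1 library (adjusted p at most 0.0756, 0.0872, 0.132, 0.177, 0.142, 0.0986 and 0.165 in the order named). With the fibroblast, endothelial and macrophage sums as covariates 1, 0 and 0 of the 76 respiratory chain genes were called in edgeR (32, 28 and 26 had an unadjusted p below 0.05), and none of the 39 genes of the TCA cycle and fatty acid oxidation (12, 12 and 8). Over all 15566 genes such a p was found for 2425, 1731 and 1484. With the pericyte and smooth muscle sum none of either list was called, and 5 of the 76 and 1 of the 39 had such a p (1294 of all 15566). Glycolysis had no call among 23 genes (median 0.01), and cytosolic ribosomal proteins none among 75 (median -0.02). An unadjusted p below 0.05 in edgeR was found for 6 and 3 of these genes, against 2553 of all 15566.

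**Figure D3:**
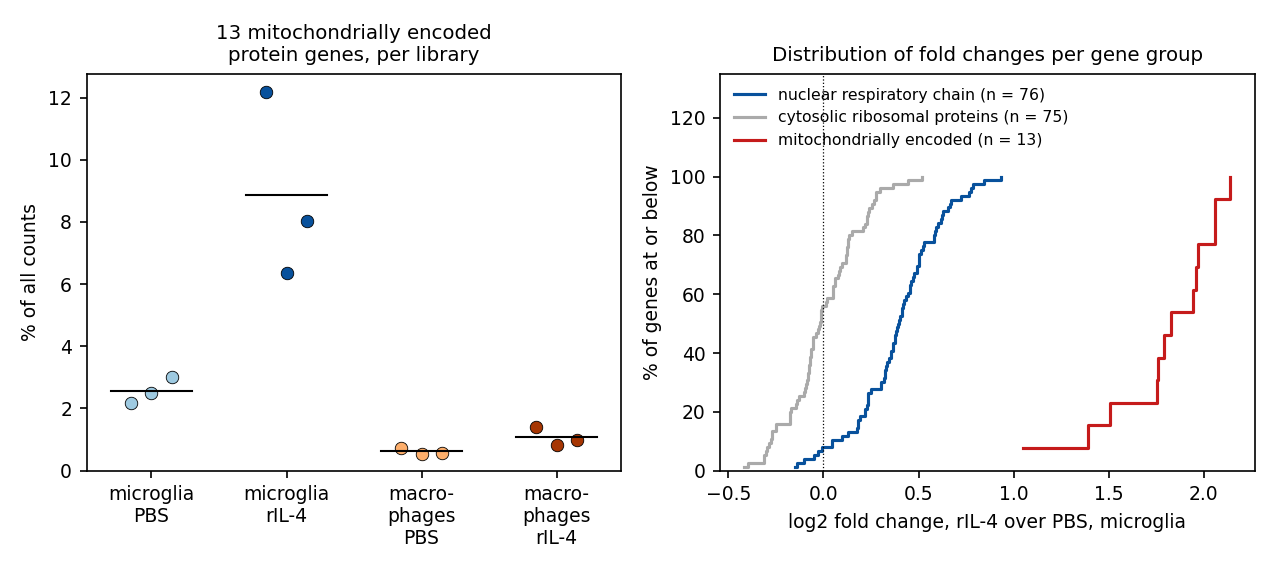
Left, percent of all counts in the 13 mitochondrially encoded protein genes, with 1 point per library and a line at the mean, and right, the cumulative percent of genes at or below each log2 fold change in 3 gene groups. The rIL-4 microglia lie at 12.2, 6.35 and 8.04% and the macrophages below all microglia, and the curve of nuclear respiratory chain genes lies to the right of that of ribosomal proteins (medians 0.40 and -0.02).

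Of 35 lysosomal genes 3 were called higher and 1 lower (1.33% and 0.887% of all genes), and the 3 were subunits of the proton pump. Atp6v0d2 (ENSMUSG00000028238.6, chr4:19876841-19922605, minus strand), the d2 subunit of its membrane part, rose 152-fold, from 28.2, 16.8 and 73.6 to 5847, 5262 and 6891 (log2 difference 7.24, standard error 0.73, adjusted p = 0.00163, edgeR), and was called in all 6 fits without 1 library. Atp6v1a and Atp6v1b2 of the cytosolic part rose 1.87-fold and 1.82-fold (adjusted p = 0.0218 and 0.0268, edgeR). Gaa, the acid glucosidase, fell from 9528, 6997 and 7063 to 3632, 4648 and 4164 (adjusted p = 0.0268, edgeR). The latter 3 were lost without any 1 PBS mouse or rIL-4 mouse 10, the pump subunits also without rIL-4 mouse 9 and Gaa without rIL-4 mouse 8 (at most 0.12, 0.142 and 0.117). Among 22 genes of lipid efflux and storage Fabp5 alone was called, and among 32 of sterol and fatty acid synthesis Fads1, a fatty acid desaturase, at 4223, 4311 and 4339 with PBS and 2041, 2501 and 1998 with rIL-4 (adjusted p = 0.0149, edgeR, at most 0.0753 without any 1 PBS mouse or rIL-4 mouse 10). Of 25 antioxidant, heme and iron genes Cd163 was higher, and Hpgd, which inactivates prostaglandins, at 5932, 3281 and 5535 with PBS and 1179.9, 572 and 657 with rIL-4, and Sod1, the cytosolic superoxide dismutase, at 8219, 7534 and 6673 with PBS and 4845, 4359 and 4521 with rIL-4, were lower (adjusted p = 0.0114 and 0.0282, edgeR). Hpgd was lost without PBS mouse 1 or 3 and Sod1 without any 1 library (at most 0.0597 and 0.142).

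Mmp12, the macrophage elastase, at 393, 307 and 294 with PBS and 1406, 1226 and 2514 with rIL-4, and Adam8, a sheddase, at 4705, 7989 and 6598 with PBS and 10564, 19615 and 22365 with rIL-4, were higher among 19 matrix proteases and inhibitors (adjusted p = 0.0444 and 0.0336, edgeR, at most 0.198 without any 1 library and 0.149 without any mouse but rIL-4 mouse 8). Of 17 heat shock chaperones only Cryab was called, lower, at 774, 1411 and 892 with PBS and 319, 289 and 186 with rIL-4 (adjusted p = 0.0282, edgeR, at most 0.111 without any 1 library). None of 22 growth and trophic factors was called by edgeR, 4 had an unadjusted p below 0.05, and DESeq2's Wald test called 2 lower (median -0.24).

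The 12 leading falls were all of genes with no count in any rIL-4 library. Nrip2 (ENSMUSG00000001520.12, chr6:128399296-128416427, plus strand), a nuclear receptor-interacting protein, had 768, 379 and 608 normalized counts with PBS and none after rIL-4, which puts it at least 165-fold below the controls (edgeR, adjusted p = 0.00302). Kcnd1 (ENSMUSG00000009731.4, chrX:7822289-7838280, plus strand), a voltage-gated potassium channel, had 812, 267 and 539 (at least 153-fold lower, adjusted p = 0.00299, edgeR). Aspg, an asparaginase, had 229, 552 and 267, Fam171b, a membrane protein, 265, 408 and 249, and Ror1, a receptor for Wnt5a, 183, 423 and 131 (at least 98.8-fold, 87-fold and 69.5-fold lower, adjusted p = 0.00563, 0.00284 and 0.0114, edgeR). These 5 kept their calls in every fit without 1 library. The others were Enpep, an aminopeptidase of pericytes, at 614, 319 and 395, Cnn1, the smooth muscle calponin, at 373, 241 and 233, and the secreted factors Gdf10, at 104, 243 and 758, and Bmp5, at 208, 388 and 162. Lrp11, of the LDL receptor-related family, had 111, 463 and 375, Cfap74, a ciliary protein, 434, 166 and 143, and the sulfate transporter Slc13a4 335, 234 and 34.8.

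Each of these 7 was lost in at least 1 fit: Enpep without any 1 PBS mouse (adjusted p at most 0.0741), Gdf10 without PBS mouse 3 (0.0743), Lrp11 without PBS mouse 2 or 3 (0.0756), Bmp5 and Cfap74 without PBS mouse 1 (0.0511 and 0.0607), Slc13a4 without PBS mouse 1 or 2 (0.0745), and Cnn1 without any 1 library (0.142). Such a pattern reached beyond the calls. At least 10 counts in every PBS library and 0 in every rIL-4 library were found for 260 genes, of which 39 were called lower, and the reverse for 15 genes, of which 10 were called higher. Gdf10, Aspg, Bmp5 and Slc13a4 also had no count in any macrophage library of the PBS and rIL-4 mice. The number of genes seen was lower in the rIL-4 microglia, as were the summed markers of fibroblasts and of pericytes and smooth muscle. The part of each in the falls was not tested, so that the falls are not assigned to microglia.

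**Figure D4:**
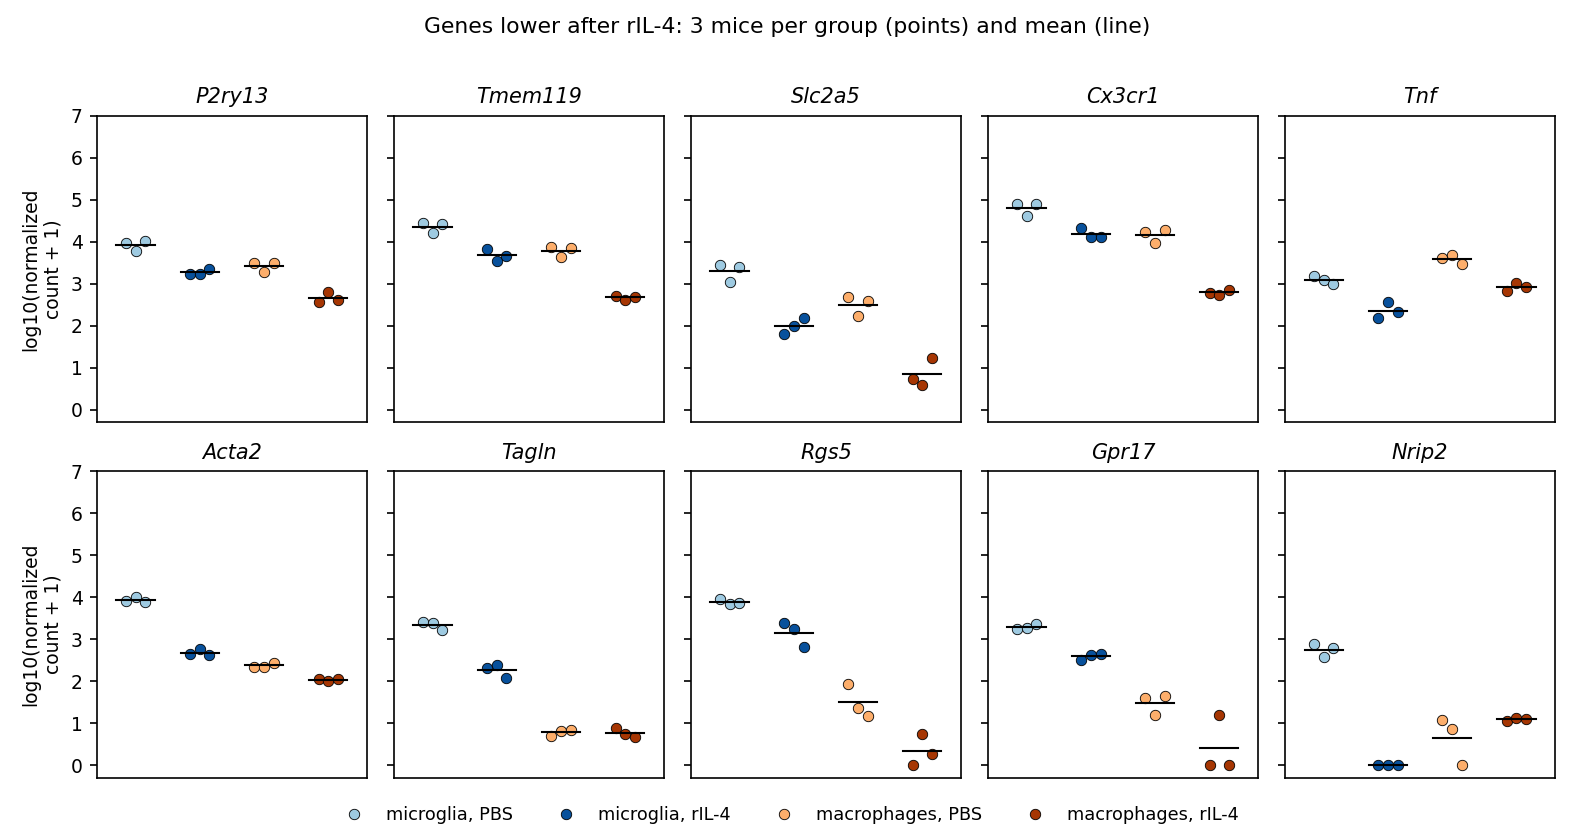
Normalized counts on a log10(value + 1) axis of 10 genes called lower after rIL-4 in microglia, with 1 point per mouse (3 per group) and a line at the mean of the log values, for microglia and macrophages given PBS or rIL-4. In each gene the rIL-4 microglia (dark blue) lie below the PBS microglia (light blue), and Nrip2 is at 0 in all 3 rIL-4 microglia libraries.

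Markers of other cells were set beside these changes as summed normalized counts. The 16 fibroblast markers summed to 107466, 169318 and 124869 in PBS and 85508, 56747 and 17893 in rIL-4 microglia, a log2 difference of -1.57 (exact permutation test, p = 0.1, two-sided). All 3 treated libraries were below the controls, and mouse 10 was the lowest. Col1a1, the main collagen chain of scar fibroblasts, had 18514, 19884 and 17769.8 with PBS and 12296, 4600 and 1536 with rIL-4 (log2 difference -1.60, standard error 0.66, adjusted p = 0.269, edgeR), so its groups were apart, but it was not called. Of the 16 markers 14 had a log2 difference below 0, and every rIL-4 library was below every PBS library in 9 (15.0% of all genes) and above in 1 (10.9% of all genes). Only Postn was called, and it was higher, against the direction of most of the list: Postn, or periostin, a matrix protein, rose 7.03-fold, from 1147, 2119 and 1375 to 11765, 13180.3 and 7572 (log2 difference 2.81, standard error 0.33, adjusted p = 0.00323, edgeR), and was called in all 6 fits without 1 library.

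Markers of pericytes and smooth muscle were lower as a list. Their sum was 29809, 27622 and 24248 with PBS and 5092, 4011 and 2903 with rIL-4, a log2 difference of -2.80 (exact permutation test, p = 0.1, two-sided). In all 10 markers every rIL-4 library was below every PBS library (15.0% of all genes), and 4 were called lower (0.887% of all genes). Acta2, smooth muscle actin, fell 18.3-fold, from 8339, 10355 and 7821 to 435, 587 and 424 (log2 difference -4.19, standard error 0.40, adjusted p = 0.00127, edgeR), and Tagln, an actin-binding protein of smooth muscle, 11.8-fold, from 2627, 2455 and 1685 to 201, 247 and 120.2 (adjusted p = 0.00122, edgeR). Both were called in all 6 fits without 1 library. Myh11, smooth muscle myosin, had 2382, 1149 and 1414 with PBS and 163, 44.7 and 194 with rIL-4, and Rgs5, a pericyte marker, 9283, 7084 and 7349 with PBS and 2397, 1736 and 650.4 with rIL-4 (adjusted p = 0.0214 and 0.0367, edgeR). Myh11 was lost without any 1 PBS mouse or rIL-4 mouse 8 and Rgs5 without any mouse but rIL-4 mouse 8 (at most 0.0986 and 0.142).

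Endothelial markers had no call among 15 tested in edgeR, and 4 had an unadjusted p below 0.05. Their sum was 118198, 88224 and 59701 in PBS and 113077, 146777 and 131584 in rIL-4 microglia, with overlapping groups and a log2 difference of 0.60 (exact permutation test, p = 0.2, two-sided). Cldn5, the tight junction claudin of brain endothelium, had 31924, 21370.1 and 12712 with PBS and 36129, 47573 and 39437 with rIL-4, higher in each treated library but not called (log2 difference 0.90, standard error 0.34, adjusted p = 0.23, edgeR). Of the 15 markers 10 had a log2 difference above 0 and 5 below, with groups apart in 3 and 1 of these, against 10.9% and 15.0% of all genes, so that neither count is read as a result on this list. The one with every rIL-4 library lower was Kdr, a receptor for vascular endothelial growth factor, at 4336, 2857 and 2472 with PBS and 1437, 1244 and 1235 with rIL-4 (log2 difference -1.30, standard error 0.32, adjusted p = 0.0834, edgeR). The 7 oligodendrocyte and 5 progenitor markers tested had 1 call each, Cldn11 of oligodendrocytes at 752, 865 and 664 with PBS and 155, 150 and 263 with rIL-4, and Gpr17 of their committed progenitors at 1787, 1812 and 2355 with PBS and 328, 429.9 and 443 with rIL-4, both lower (adjusted p = 0.0198 and 0.00316, edgeR). The progenitor markers summed to 5931, 7031 and 5884 with PBS and 1427, 2397 and 1225 with rIL-4 (log2 difference -1.96), and the 9 neuron markers, of which 4 were tested and none called in edgeR (2 had an unadjusted p below 0.05), to 842, 1103 and 555 and 268, 395 and 385 (log2 difference -1.22), both without overlap (exact permutation test, p = 0.1 each, two-sided). Gpr17 was called in all 6 fits without 1 library, and Cldn11 in the fit without rIL-4 mouse 10 only (at most 0.0906).

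Infiltrating macrophage markers, 18 in number, summed to 44459, 66877 and 60764 with PBS and 75143, 74104 and 121030.2 with rIL-4, all treated above all control libraries on this scale (log2 difference 0.63, exact permutation test, p = 0.1, two-sided). As CPM the log2 difference was 0.49 (exact permutation test, p = 0.2, two-sided), and rIL-4 mouse 8 was below PBS mouse 2. Of the 18 markers 12 had a log2 difference above 0 and 6 below, with groups apart in 6 and 2 of these (10.9% and 15.0% of all genes), and 3 were called higher and none lower. The count of 2 is not above that of all genes. The 2 with every rIL-4 library lower were Vcan, the proteoglycan versican, at 772, 897 and 844 with PBS and 232, 291 and 488 with rIL-4, and Lyz1, a lysozyme, at 25.1, 54.2 and 46.7 with PBS and 6.56, 0.843 and 4.71 with rIL-4 (adjusted p = 0.093 and 0.335, edgeR). The called members were S100a4, a calcium-binding protein, at 1709, 2798 and 2859 with PBS and 13911, 8440.4 and 13249.7 with rIL-4, F10, coagulation factor X, at 199, 946 and 232 with PBS and 2743, 5044 and 6127 with rIL-4, and Ms4a7, a membrane protein of tissue macrophages, at 659, 814 and 826 with PBS and 1937, 1499.6 and 2939.8 with rIL-4 (adjusted p = 0.00496, 0.0282 and 0.0397, edgeR). F10 was lost without PBS mouse 1 or 3 or rIL-4 mouse 9 or 10, and Ms4a7 without any mouse but rIL-4 mouse 9 (at most 0.121 and 0.188), and S100a4 was kept throughout. The defining monocyte receptor Ccr2 had 441, 1226 and 476 with PBS and 1634, 1006 and 2735 with rIL-4, and Ly6c2 66.9, 553 and 193 with PBS and 258, 586 and 422 with rIL-4, both with overlapping groups. Their log2 differences were 1.33 and 0.65 (adjusted p = 0.229 and 0.809, edgeR). Microglia markers, by contrast, summed to 508022, 283829.8 and 468639.6 with PBS and 202044, 119506 and 135581 with rIL-4 (log2 difference -1.46, exact permutation test, p = 0.1, two-sided), and the 8 pan-myeloid markers differed by -0.10 (p = 0.8, exact permutation test).

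**Figure D5:**
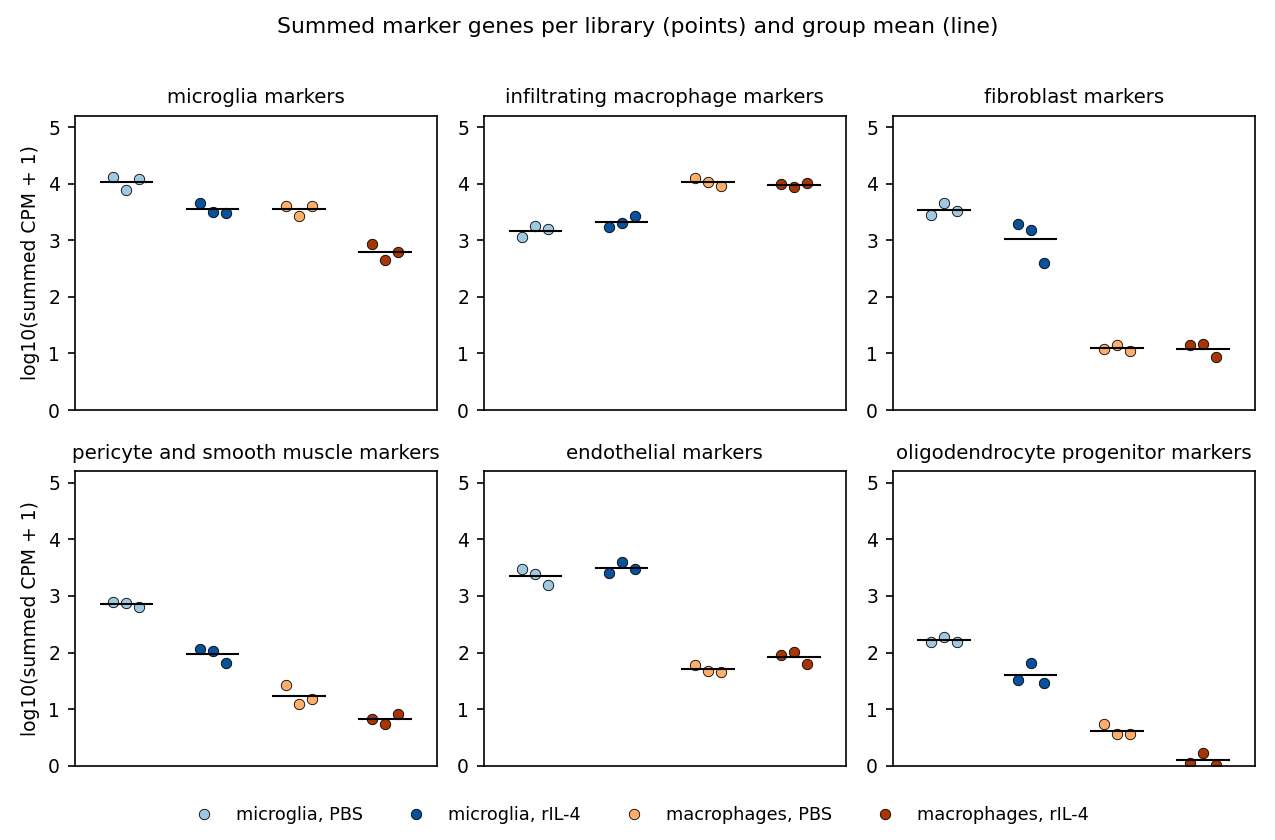
Summed CPM of the markers of 6 cell types on a log10(value + 1) axis, with 1 point per library and a line at the mean of the log values, for microglia and macrophages given PBS or rIL-4. Pericyte and smooth muscle markers summed to 629 to 768 CPM in PBS and 64.9 to 115 CPM in rIL-4 microglia, the endothelial groups overlap, and fibroblast and endothelial sums are lower in the macrophages than in the microglia.

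The macrophage libraries of the same mice gave a scale for macrophage RNA. The summed infiltrating macrophage markers of rIL-4 microglia stood at 17.5, 22.6 and 25.9% of the CPM in the macrophages of mice 8, 9 and 10, and in PBS microglia at 9.03, 16.7 and 17.3% for mice 1, 2 and 3. The same percentage was taken for every gene. It was above that of the summed markers in all 3 rIL-4 mice for 192 of the 207 genes called higher (92.8%), against 73.3% of all genes tested, and 70 of them (33.8%) were above the macrophage library itself, as were 57 of the 138 genes called lower (41.3%) and 28.6% of all. The genes called higher were chosen on these same rIL-4 libraries, so their shares are a description. Socs1 in rIL-4 microglia stood at 98.9, 75.2 and 85.4% of the macrophage level, Clec7a at 98, 92.8 and 104% and Retnla at 55.7, 35.1 and 46.8%. Chil3 at 13.9, 23.4 and 25.2% and Mrc1 at 13.4, 28.6 and 31.1% were below the markers' percentage in mouse 8, and Chil3 also in mouse 10. Of the 12 leading rises, Pdcd1lg2 at 42.2, 24.1 and 16.5% was below the markers' percentage in mouse 10. Atp6v0d2 at 17.2, 35.9 and 31.1% was below it in mouse 8, and the other leading rises were above it in all 3 mice. Sprr2a2 was at 3379, 2452 and 3538%, above the macrophages of each mouse. The part of macrophage RNA in each value was not tested.

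Marker sums were also entered as covariates. With the fibroblast sum, 80 of the genes called higher and 37 of those called lower were called again, with the endothelial sum 53 and 15, and with the macrophage sum 28 and 5, and all 345 kept their direction in these fits. Each fit spends a degree of freedom on 9 libraries. None of the 7 homeostatic calls was left with the endothelial or the macrophage sum, and 5 were called with the fibroblast sum. With the endothelial and the macrophage sum 19 and 8 of the 28 genes had an unadjusted p below 0.05 in edgeR, against 1731 and 1484 of all 15566. Of the 14 alternative activation calls 10, 7 and 6 were left with the fibroblast, endothelial and macrophage sums. The pericyte and smooth muscle sum, added after the data were seen, was the covariate with which no gene was called in edgeR (1294 of 15566 had an unadjusted p below 0.05). In that fit 307 of the 345 genes kept their direction. The log2 difference of Ccl24 was 8.95 (8.40 without the covariate) and that of Socs1 4.27 (3.90), while that of Chil3 was 5.41 (7.12) and that of Atp6v0d2 2.76 (7.24). The fibroblast, macrophage and pericyte and smooth muscle sums, taken as normalized counts, each left no overlap between the PBS and rIL-4 groups, so that these markers and rIL-4 cannot be told apart.

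The rIL-4 response of microglia was last set beside that of macrophages from the same mice, where 14.0% of 13606 genes were called. A test of the difference between the responses called 81 genes above 0 (0.49%), with a more positive response in microglia, and 83 below (0.502%). This fit had no term for the mouse that gave both cell types, and 107 of its 164 calls were also made with the mouse as a block. Lgals3 rose in microglia and in macrophages went from 91401, 125992 and 120768 to 126254, 156734 and 154691 normalized counts, a difference of 1.71 on the log2 scale (adjusted p = 0.0124, edgeR). Cd300lf and S100a4 also differed toward microglia, by 1.52 and 1.83 (adjusted p = 0.0147 and 0.0408, edgeR). Rnase2a and Slc7a2 rose more in macrophages, with differences of -2.94 and -2.54 (adjusted p = 0.0415 and 0.0393, edgeR). Cx3cr1 went from 16667, 9508 and 18554 to 601, 548 and 711 in macrophages, a larger fall than in microglia by 2.49 (adjusted p = 0.0374, edgeR), and Sparc from 7268, 2999.8 and 7774 to 326, 209 and 285, by 3.32 (adjusted p = 0.0022, edgeR). Acta2 fell further in microglia, by a difference of -3.08 (adjusted p = 0.0022, edgeR), from a level in PBS macrophages of 219.8, 219 and 277. Of these differences, Acta2 and Sparc kept the call in every fit that left out 1 of the 6 mice, whereas Lgals3, Cd300lf, S100a4, Rnase2a, Slc7a2 and Cx3cr1 had an adjusted p of up to 0.117, 0.0911, 0.182, 0.2, 0.195 and 0.191 in such fits (edgeR).

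For Chil3 the difference was 1.95, called only once the mouse was a block (adjusted p = 0.193 without it, 0.00699 with it, edgeR). The block raised the count above 0 to 122. The homeostatic list had a median log2 difference of -2.02 in macrophages and -1.13 in microglia, the alternative activation list 2.43 and 2.67, and the mitochondrial genome 0.65 and 1.83. These medians are given side by side, and their differences were not tested. Of the genes called lower in microglia 34.1% were too low to test in macrophages, against 2.42% of those called higher and 16.4% of all.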

How the data were processed

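RNA of sorted microglia and macrophages was read as gene-level estimated counts. According to the submitters' processing notes the authors aligned reads with STAR 2.5.3a to GRCm38 and estimated expected counts with RSEM 1.3.0, and the deposited table holds these expected counts as whole numbers for 53465 genes. No strand or molecular identifier is stated, so antisense and overlapping genes can share reads, and the floor of 3 counts covers counting error only.

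Genes were filtered by filterByExpr on the 9 microglia libraries, which left 15566, and tested with edgeR 4.0.16 (TMM, quasi-likelihood, R 4.3.3) in a model with 3 treatment groups, of which rIL-4 against PBS was taken. P-values were adjusted by Benjamini and Hochberg over all genes, with 0.05 as threshold, and standard errors were derived from the F statistic. Normalized counts used DESeq2 1.42.0 size factors. Each group had 3 mice, so p-values measure the spread between these animals. The members and lists were chosen with earlier results of these data known. Named genes were the 12 largest rises and falls among called genes with at least 100 normalized counts in the higher group and no overlap, clone and predicted names left out, the called members of each list and a fixed set reported whatever their result; some of these are not reported here. Alternatives were other size factors, filters, DESeq2, other sets of libraries, no mitochondrial genome, marker covariates and each library left out.

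The difference between cell types was fitted on 18 libraries, and its block is the mouse, since both cell types of a number come from the same animal (correlation of deviations 0.0470 to 0.206). On simulated data for 15566 genes 49 of 100 genes changed 4-fold and 84 of 100 changed 16-fold were called, with 4 false calls. The changed genes were drawn from those with a mean of at least 100 counts, and apart from these changes all groups shared the same means. These rates therefore do not cover genes near 0 or the difference in the number of genes seen. Positions are from GENCODE M21, where 50690 versioned gene identifiers matched, and promoters from RefSeq.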

Additional observations from a re-analysis of the deposited data

Results flagged for a closer look

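In 20 named genes the rIL-4 response differed between microglia and macrophages by an interaction test (edgeR, adjusted p below 0.05), each value being the microglial minus the macrophage response on the log2 scale. Toward a higher value in microglia were Serpina3g (5.23), Sparc (3.32), Cx3cr1 (2.49), Cldn5 (2.34), Ms4a7 (1.83), S100a4 (1.83), Lgals3 (1.71), Ckb (1.56), Cd300lf (1.52), Gas6 (1.43) and Ccr7 (10.18). Toward a lower value were Slc7a2 (-2.54), Rnase2a (-2.94), Acta2 (-3.08), Tagln (-3.57), Cfap74 (-8.19), Kcnd1 (-9.10), Lrp11 (-11.01), Nrip2 (-13.04) and Ror1 (-13.54). Each mouse gave a library of both cell types, and with the mouse as a block the calls of Cfap74 and Ror1 were lost (adjusted p = 0.0531 and 0.196, edgeR). Sparc, Acta2 and Nrip2 kept the call in every fit that left out 1 of the 6 mice. The other genes lost it in at least 1 such fit, with an adjusted p in edgeR of up to 0.0537 for Kcnd1, 0.0607 for Lrp11, 0.0844 for Tagln, 0.0858 for Serpina3g, 0.104 for Ccr7, 0.124 for Cldn5 and for Ckb, 0.129 for Cfap74, 0.155 for Ms4a7, 0.195 for Gas6 and 1.00 for Ror1. Ccr7, Cfap74, Kcnd1, Lrp11, Nrip2 and Ror1 had no count in 1 microglial group, so that their values depend on the prior count of the fit and are no bounds. Ror1, Nrip2 and Tagln were also near the floor in macrophages, with 0, 0 and 0, 11, 6.46 and 0 and 4.01, 5.38 and 5.98 normalized counts in PBS mice 1, 2 and 3. Cldn5 marks endothelial cells, and its level in macrophages was 120.4, 59.2 and 78.7 with PBS and 38, 28.8 and 25.9 with rIL-4.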

How the results depend on the processing

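The 207 genes higher and 138 lower in rIL-4 microglia became 547 and 668 by DESeq2's Wald test, which called all 345, and 482 and 467 with all 18 libraries in 1 model. They became 85 and 58 with the fibroblast, 53 and 16 with the endothelial and 28 and 6 with the infiltrating macrophage markers as a covariate, and 0 and 0 with the pericyte and smooth muscle markers, a fit chosen after seeing the data. Leaving out 1 library gave 56 to 151 higher and 19 to 118 lower calls, fewest without PBS mouse 3 (56 and 19) or PBS mouse 1 (59 and 22), with fewer samples in the fit. The other size factors, filters and the fit on 6 libraries kept both counts within 1.5 times. The difference between the microglial and macrophage responses had 81 calls above 0 and 83 below, and 396 and 293 by DESeq2. With the mouse as a replicate block it had 122 and 66, and 107 of the 164 calls were shared. Ror1 and Cfap74 were among those lost (adjusted p = 0.196 and 0.0531, edgeR). Leaving out 1 mouse gave 10 to 44 above and 8 to 65 below. The summed markers and the mitochondrial share kept their sign in the settings run, but the groups of the infiltrating macrophage sum overlapped as CPM (log2 difference 0.49, exact permutation test, p = 0.2) and without PBS mouse 1 or rIL-4 mouse 10 the difference was 0.46 and 0.40.

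Over 129 named genes and their settings, 1507 of 2033 values kept direction and side of the threshold, 500 lost the call, 18 gained it and 8, of genes not called, changed sign. These were Il4ra (-0.10, range -0.10 to 0.81 over the fits leaving out 1 library) and Irf4 (-2.70, range -2.70 to 4.11) without rIL-4 mouse 9, Irf4 (-0.65) and Irs2 (-0.20) with the endothelial covariate, Irf4 (-1.25) with the fibroblast covariate, and Stat6 (-0.077), Il1b (-0.013) and Ly6c2 (-0.15) with the macrophage covariate. Of 494 list medians under these settings 48 moved and 35 changed sign. Where no library of a group had a count, depth limits the fall or rise to a bound. The causes of these changes were not tested.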

Other observations

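The lowest adjusted p-values of the comparison belonged in part to genes outside the lists, named here after their values were seen and kept in every fit that left out 1 of the 6 libraries. Gatm, which transfers the amidino group of arginine to glycine in the first step of creatine synthesis, had 12612, 9811 and 11756 normalized counts in PBS and 122962, 113288 and 96671 in rIL-4 microglia, a rise of 9.75-fold (log2 difference 3.29, standard error 0.18, adjusted p = 5.74e-05, edgeR). Its level in rIL-4 microglia was 312, 255 and 230% of that in the macrophages of mice 8, 9 and 10. Ckb, the brain-type creatine kinase, fell 3.15-fold, from 26109, 22887 and 25398 to 8485, 7597 and 7473 (adjusted p = 0.000872, edgeR). Prps1, which makes the ribose donor of nucleotide synthesis, rose 8.22-fold, from 1556, 1774 and 1863 to 13302, 17486 and 11808 (adjusted p = 0.000227, edgeR).

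Serpina3g, a serine protease inhibitor, had 150.4, 103 and 45.7 in PBS and 9423, 19373 and 12489 in rIL-4 microglia, a rise of 138-fold (adjusted p = 0.000748, edgeR), while the macrophages of mice 8, 9 and 10 had 27, 56.7 and 32.1. It belongs to a cluster of near-identical copies, so that its reads may be split among them. Tarm1, an activating receptor of myeloid cells, rose from 121, 251 and 197 to 3862, 3354 and 2762, and Srgn, the proteoglycan core serglycin, from 11313, 19346 and 14454 to 70064, 110201 and 108286 (adjusted p = 0.000346 and 0.00107, edgeR). Ap2m1, a subunit of the clathrin adaptor, rose 3.45-fold, and Anxa4, an annexin, 3.85-fold (adjusted p = 0.000491 and 0.00138, edgeR).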
